A study of Arabidopsis thaliana with 12 samples.

Results

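The transcripts described here are those of 10 auxin biosynthesis genes of Arabidopsis thaliana, the aminotransferase genes TAA1 and TAR2 and the YUCCA flavin monooxygenase genes YUC1, YUC2, YUC3, YUC4, YUC5, YUC6, YUC8 and YUC9. They were picked by gene identifier, without use of their measured values, from the 32833 genes counted in the study, and all 10 were present. The study sequenced RNA of whole seedlings to learn what BBX28, a transcription regulator with a B-box zinc finger, does to the transcript response to shade. The 12 libraries form 4 groups of 3 biological replicates, which are the accession Col-0 in white light, Col-0 in simulated shade, and the line bbx28-5 (Columbia background) in each of these lights. All seedlings had spent 2 days in days of 10 h light and 14 h dark, and the groups then had 4 h of either light. Photosynthetically active radiation was 90 µmol per square metre per second in white light and 20 in shade, far-red light was 8.3 against 5.5, blue light 8.1 against 1.3 and red light 9.13 against 0.8. The ratio of red to far-red was thus 1.1 in white light and 0.145 in shade. Shade differed from white light in total light as well as in colour, and what the bbx28-5 lesion is was not given in the sources used here.

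Indole-3-acetic acid (IAA), the main natural auxin, is made from tryptophan mostly by a short route. TAA1 and its relative TAR2 convert tryptophan to indole-3-pyruvic acid, and the YUCCA enzymes turn that into IAA, a step regarded as limiting. In young seedlings under shade, new auxin made in the cotyledons is known to move to the hypocotyl and to drive its elongation, with PHYTOCHROME-INTERACTING FACTORS (PIFs) binding upstream of some YUCCA genes.

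Libraries held 10.61 to 14.3 M counts (M for mega), so that 3 counts amounted to between 0.200 and 0.346 counts per M (CPM). CPM is scaled here with TMM factors (trimmed mean of M values, edgeR). Across genes, log2 CPM of replicates correlated at 0.987 or more, except in the bbx28-5 shade group, where the lowest r was 0.963 and replicate 2 stood apart. Tests of the 10 genes that use this group are therefore given with and without that library, and sums by library. Mean TMM factors were 0.841 ± 0.0442 for that group and 1.04 ± 0.0218 for Col-0 under shade (SD, n = 3). With scaling by total counts instead, the median of all genes moved by -0.34 on the log2 scale for shade in bbx28-5, by -0.30 for the genotypes in shade and by -0.29 for their interaction, and by -0.05 or less in size elsewhere. BBX28 transcripts ran from 64.1 to 74.2 CPM in Col-0 and from 99.8 to 108 CPM in bbx28-5 in white light. In shade they ran from 104 to 115 CPM and from 144 to 210 CPM. As the lesion was not given, this does not test the genotype labels.

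The 10 genes lie on chromosomes 1, 4 and 5, and none overlaps another annotated gene in the TAIR10.1 annotation. TAA1 (AT1G70560) is at chr1:26604855-26607652 on the plus strand with 5 coding exons, and TAR2 (AT4G24670) is at chr4:12727531-12731331 on the minus strand, also with 5. YUC8 (AT4G28720), at chr4:14192569-14194302 on the plus strand, and YUC5 (AT5G43890), at chr5:17648576-17650375 on the minus strand, each have a single coding exon. YUC9 (AT1G04180) is at chr1:1104493-1106241 (plus) and has 2 coding exons, and YUC3 (AT1G04610) is at chr1:1279351-1281618 (plus) with 3. YUC1 (AT4G32540) at chr4:15700829-15703000 (plus), YUC2 (AT4G13260) at chr4:7721487-7724070 (minus) and YUC4 (AT5G11320) at chr5:3611247-3613640 (minus) have 4 each, and YUC6 (AT5G25620) at chr5:8934941-8938768 (minus) has 5. The closest pair in coding sequence was YUC5 and YUC9, with 81.0% identical bases. YUC8 was 73.3% identical to YUC9 and 72.5% to YUC5, YUC1 was 70.8% identical to YUC4, YUC2 was 68.6% identical to YUC6, and TAA1 was 65.5% identical to TAR2. Few stretches were long enough to confuse reads. YUC9 shared 20 of its 1619 runs of 31 bases with YUC5 or YUC7, YUC5 shared 12 of 1770 with YUC9, TAA1 shared 6 of 1518 with TAR1, and the other 7 shared none.

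The stretches upstream of the annotated starts were searched on both strands for 3 short motifs, the G-box CACGTG and the PBE-box CACATG, both known PIF binding motifs, and the evening element AAATATCT of clock-regulated genes. YUC8 was the only one of the 10 with a G-box in the 1000 bases upstream, a feature found in 14.8% of 27443 nuclear protein-coding genes. It had 2 of them, with first bases 484 and 448 bases before the start, within a repeated run of 13 bases, cCACGTGgcttcc, that recurs after 36 bases. YUC8 also had a PBE-box 53 bases before the start and an evening element at 803. A PBE-box lay within 300 bases of the start in YUC8, YUC9 and YUC2, against 13.1% of all genes. YUC2 also had an evening element at 220, and YUC6 had a PBE-box at 478 and an evening element at 574. None of the 3 motifs was found within 1000 bases of TAA1, TAR2, YUC1, YUC3, YUC4 or YUC5. Shares over all genes in 1000 bases were 37.7% for the PBE-box and 15.3% for the evening element. Matches of letters do not show binding, which was not measured. The stretch with both G-boxes of YUC8 is shown, with that of the PBE-boxes of YUC8, YUC9 and YUC2 and, for comparison, the last 100 bases before YUC5 and TAA1, the genes with the largest falls in shade in Col-0. They are taken from the TAIR10.1 genome, 5′ to 3′ on the strand of the gene, with motifs in capitals.
YUC8, chr4:14192029-14192178, plus strand: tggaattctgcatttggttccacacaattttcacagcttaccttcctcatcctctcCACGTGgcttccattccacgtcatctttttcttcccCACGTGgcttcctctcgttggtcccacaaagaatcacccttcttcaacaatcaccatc
YUC8, chr4:14192469-14192568, plus strand: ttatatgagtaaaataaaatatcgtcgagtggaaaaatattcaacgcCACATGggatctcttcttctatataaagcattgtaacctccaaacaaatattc
YUC9, chr1:1104393-1104492, plus strand: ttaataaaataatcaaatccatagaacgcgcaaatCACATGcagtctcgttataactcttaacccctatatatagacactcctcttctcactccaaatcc
YUC2, chr4:7724071-7724170, minus strand: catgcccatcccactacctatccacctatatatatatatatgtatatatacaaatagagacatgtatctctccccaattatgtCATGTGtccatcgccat
YUC5, chr5:17650376-17650475, minus strand: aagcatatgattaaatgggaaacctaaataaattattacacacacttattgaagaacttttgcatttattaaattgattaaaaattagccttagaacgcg
TAA1, chr1:26604755-26604854, plus strand: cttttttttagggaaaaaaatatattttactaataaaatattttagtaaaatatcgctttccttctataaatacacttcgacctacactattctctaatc

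YUC8 was the most abundant YUCCA transcript in every group once levels were divided by exon length. In Col-0 in white light its level was 11.2 ± 1.76 CPM per kb of exon, next to TAA1 at 9.08 ± 1.27 (SD, n = 3), and the ranges of these 2 genes overlapped. TAR2 followed at 5.73 ± 0.109, clear of both neighbours. YUC2 at 3.44 ± 0.363 and YUC3 at 3.05 ± 0.661 could not be told apart by their ranges, nor could YUC6 at 1.76 ± 0.358, YUC5 at 1.46 ± 0.118 and YUC9 at 1.39 ± 0.334 in that order. YUC4 stood at 0.231 ± 0.132 and YUC1 at 0.0154 ± 0.0267 CPM per kb.

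In shade the order opened up at the top. YUC8 stood at 32.5 ± 3.34 CPM per kb in Col-0, far from TAA1 at 3.57 ± 0.145, and TAA1, TAR2, YUC2 and YUC3 formed a run with overlapping neighbours down to 2.73 ± 0.416. In bbx28-5 in white light TAR2 came first at 8.94 ± 0.827, overlapping with YUC8 at 7.48 ± 1.00, which overlapped with TAA1 at 7.37 ± 0.410. In bbx28-5 in shade YUC8 led again at 19.4 ± 3.92, ahead of TAR2 at 4.14 ± 0.705 and TAA1 at 2.82 ± 0.460. YUC1, the founding member of the family in genetic studies, was at the limit of detection. Over the 3 libraries of a group it had 1 count in Col-0 in white light, 3 in Col-0 in shade, 3 in bbx28-5 in white light and 0 in bbx28-5 in shade, and it was left out of the tests as too low. YUC4 had between 1 and 16 counts in a library, and its values are correspondingly loose.

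**Figure D1:**
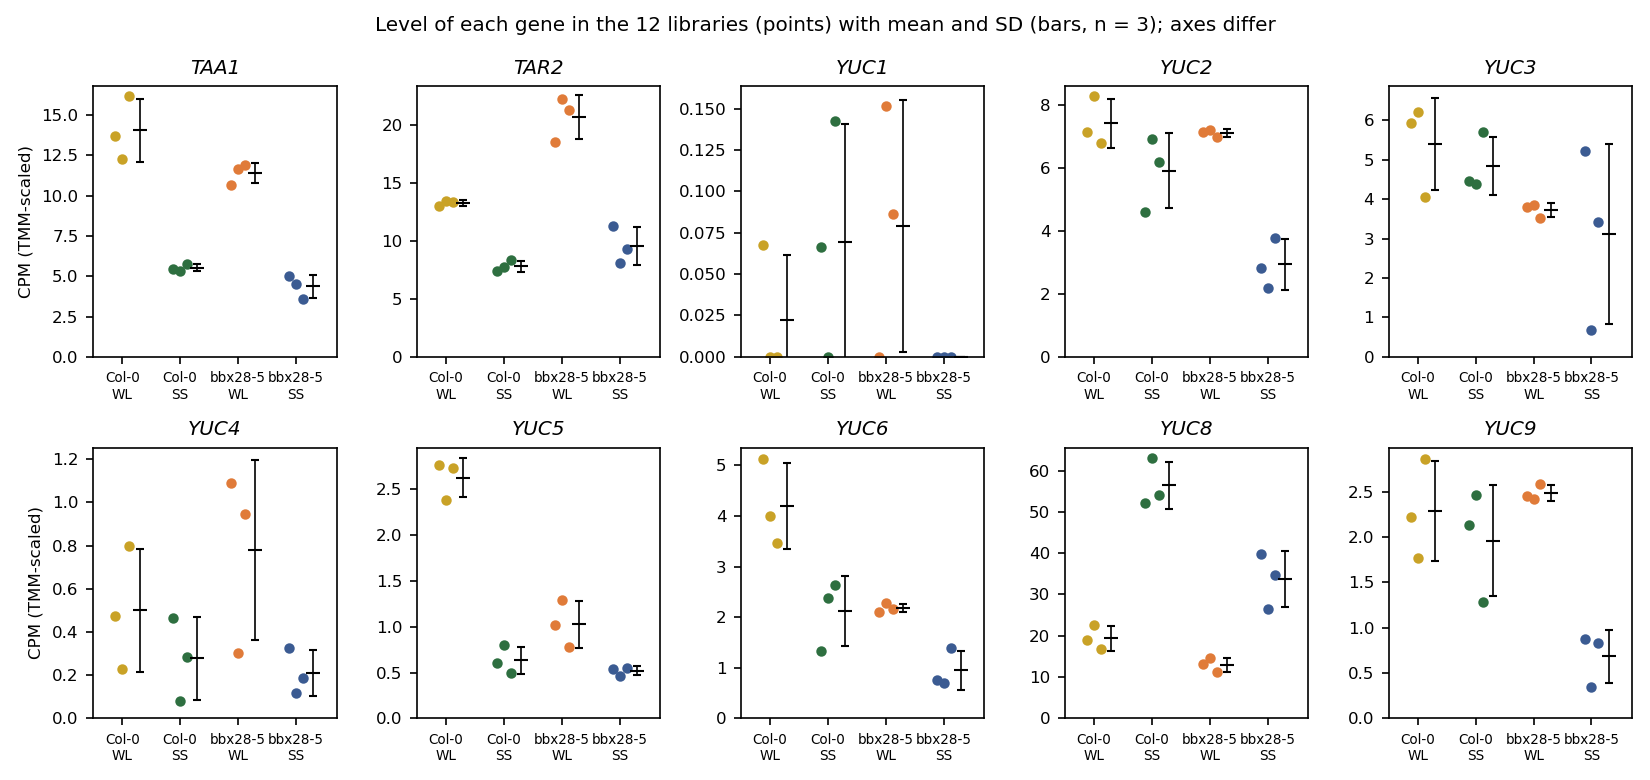
CPM (TMM-scaled) of each of the 10 genes in the 12 libraries, as points by group, with the mean and SD of 3 libraries as a bar beside them; the vertical axes are linear, start at 0 and differ between genes. YUC8 is higher in shade in both genotypes, from 16.7 to 22.7 up to 52.2 to 63.0 CPM in Col-0, whereas TAA1 and TAR2 are lower in shade.

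The aminotransferase genes fell in shade in Col-0 while the leading YUCCA gene rose. TAA1 was at 13.7, 12.3 and 16.2 CPM in the 3 white light libraries and at 5.47, 5.33 and 5.77 CPM in shade. The groups were far apart, and the log2 change was -1.35 ± 0.141 (SE), a fall of 2.54-fold (adjusted p = 1.60e-06). TAR2, whose product acts in the same step, went from 12.9, 13.4 and 13.3 to 7.40, 7.72 and 8.34 CPM, again without overlap, and fell by 0.76 ± 0.129 on the log2 scale (adjusted p = 1.56e-04). YUC8 was at 18.9, 22.7 and 16.7 CPM in white light and at 52.2, 63.0 and 54.1 CPM in shade. Every shade library exceeded every white light library, and the gene rose by 1.54 ± 0.155, or 2.90-fold (adjusted p = 1.11e-06).

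Other YUCCA genes went down or showed no change that passed the test. YUC5, the gene closest in sequence to YUC9, had 2.77, 2.38 and 2.73 CPM in white light and, in shade, 0.600, 0.796 and 0.499 CPM. Its fall of 4.15-fold (log2 change -2.05 ± 0.266, adjusted p = 1.30e-05) was the largest in size among the 9 tested genes, and the shade values rest on 7 to 10 counts a library. YUC6 went from 5.13, 3.99 and 3.46 to 1.33, 2.39 and 2.64 CPM (log2 change -0.99 ± 0.260, adjusted p = 0.00455). The highest shade value was below the lowest white light value. YUC2 was at 7.15, 8.29 and 6.79 CPM in white light and, in shade, 4.60, 6.92 and 6.20 CPM. These ranges overlapped (log2 change -0.33 ± 0.179, adjusted p = 0.128), as did those of YUC3 (-0.15 ± 0.338, adjusted p = 0.721), YUC4 (-0.81 ± 0.645, adjusted p = 0.297) and YUC9 (-0.23 ± 0.278, adjusted p = 0.490). In all, 1 of the 9 tested genes rose and 4 fell, while 59.4% of the 19711 tested genes changed in this comparison (29% higher and 30.4% lower), so the number of changed members is near the background. The groups of 5 members did not overlap, which held for 72.8% of all tested genes. Their median log2 change was -0.76, against -0.02 over all genes.

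In bbx28-5, too, TAA1 and TAR2 fell and YUC8 rose, and 5 other YUCCA genes fell, 3 without replicate 2 of the shade group. TAA1 went from 10.7, 11.7 and 11.9 to 5.00, 4.50 and 3.60 CPM (log2 change -1.39 ± 0.156, adjusted p = 2.25e-06), and TAR2 from 18.5, 22.2 and 21.3 to 11.3, 8.08 and 9.32 CPM (-1.11 ± 0.128, adjusted p = 3.09e-06). Neither gene had overlapping groups. YUC8 rose from 13.3, 14.5 and 11.1 to 39.9, 26.4 and 34.7 CPM, a log2 change of 1.37 ± 0.164, or 2.59-fold (adjusted p = 4.09e-06), with replicate 2 the lowest of the shade libraries but still above all in white light. YUC2, which did not pass in Col-0, was at 7.15, 7.20 and 6.97 CPM in white light and at 2.83, 2.19 and 3.78 CPM in shade. That was a fall of 2.38-fold (log2 change -1.25 ± 0.209, adjusted p = 1.02e-04) with well separated groups.

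YUC9 had 2.45, 2.42 and 2.58 CPM in white light and, in shade, 0.870, 0.346 and 0.831 CPM, the latter from 8, 3 and 9 counts. It fell by 1.82 ± 0.360 on the log2 scale (adjusted p = 4.47e-04). YUC6 went from 2.11, 2.27 and 2.15 to 0.761, 0.693 and 1.38 CPM (-1.16 ± 0.349, adjusted p = 0.00910), without overlap. YUC5 had 1.02, 1.29 and 0.775 CPM in white light and, in shade, 0.544, 0.462 and 0.554 CPM from 5, 4 and 6 counts (-0.97 ± 0.347, adjusted p = 0.0275). YUC4 had 16, 4 and 11 counts in white light and 3, 1 and 2 in shade (-1.86 ± 0.715, adjusted p = 0.0330). YUC3 did not pass (-0.25 ± 0.395, adjusted p = 0.593), and its shade libraries were far apart at 5.22, 0.693 and 3.41 CPM, with replicate 2 the low one.

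Of the 9 tested genes 1 rose and 7 fell in bbx28-5, against 67.5% of all genes changed (34.4% higher and 33.1% lower), and their median log2 change was -1.16, against 0.00 over all genes. The groups of 7 members did not overlap, as for 68.1% of all tested genes. Among all called genes 51.0% were higher with TMM scaling and 33.9% with total counts, under which the members again gave 1 rise and 7 falls. Without replicate 2 of the bbx28-5 shade group TAA1 changed by -1.43, TAR2 by -1.02, YUC2 by -1.11 and YUC9 by -1.55, and these passed the test, as did the fall of YUC6 (adjusted p = 0.0213) and the rise of YUC8 (adjusted p = 3.71e-10). YUC4 (-1.63, adjusted p = 0.0614) and YUC5 (-0.92, adjusted p = 0.0727) no longer passed, which left 1 rise and 5 falls. In Col-0 the same omission gave 1 rise and 5 falls as well, since YUC2 then passed (-0.38, adjusted p = 0.0360). YUC5 also missed the threshold with DESeq2 (adjusted p = 0.0604) and without replicate 2 of bbx28-5 in white light (adjusted p = 0.123), and YUC4 with limma (adjusted p = 0.0611), without replicate 1 (adjusted p = 0.130) or 3 (adjusted p = 0.0806) of that group or without replicate 3 of the shade group (adjusted p = 0.0849).

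**Figure D2:**
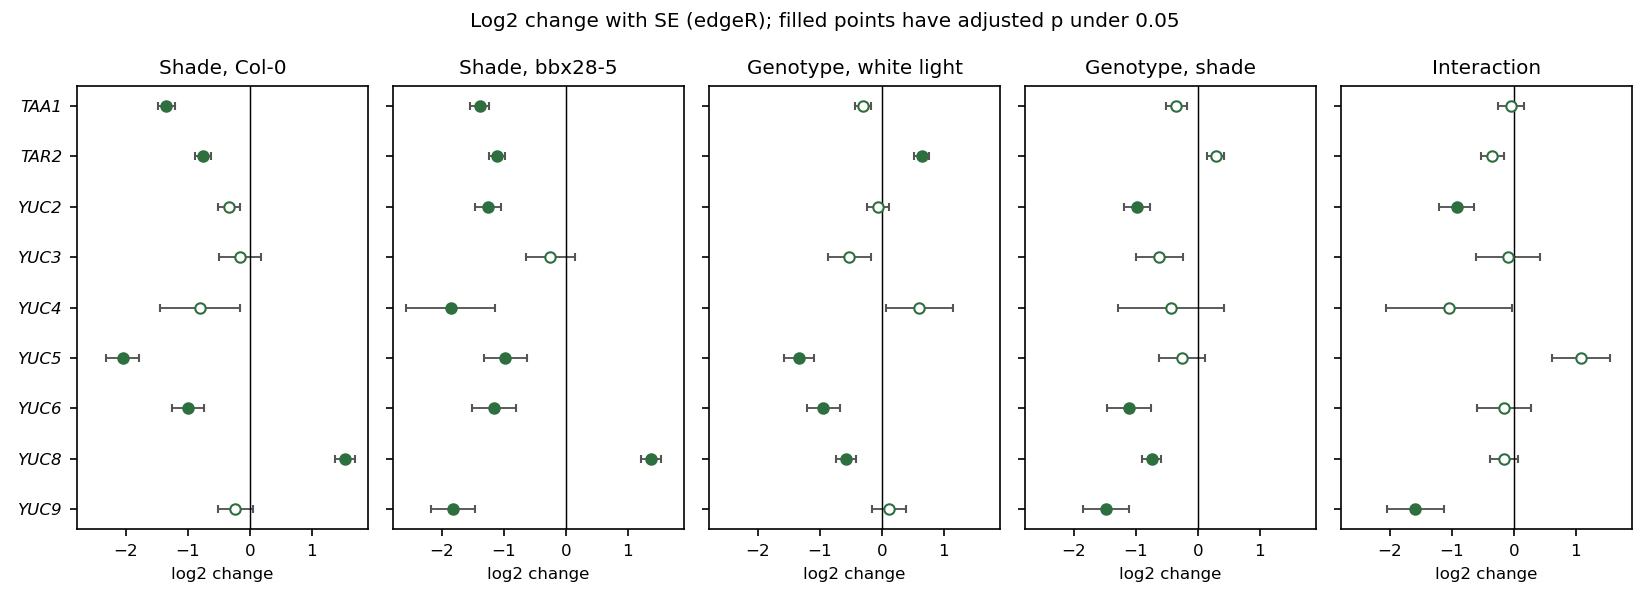
Log2 change (points) with SE (bars) of the 9 tested genes in the 5 comparisons, from edgeR's quasi-likelihood test; filled points have an adjusted p under 0.05. YUC8 is the only one of the 9 above 0 in both shade panels (1.54 and 1.37), and YUC2 (-0.92) and YUC9 (-1.59) are filled in the interaction panel.

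Between the genotypes in white light, before any shade, TAR2 was higher in bbx28-5 and 3 YUCCA genes were lower. TAR2 ranged from 12.9 to 13.4 CPM in Col-0 and from 18.5 to 22.2 CPM in bbx28-5, a log2 difference of 0.64 ± 0.120, or 1.56-fold (adjusted p = 0.00390). YUC5 differed in the opposite direction, by -1.34 ± 0.246 or 2.53-fold (adjusted p = 0.00340), and its highest bbx28-5 value, 1.29 CPM, was below its lowest Col-0 value, 2.38 CPM. YUC6 was lower by 0.94 on the log2 scale (log2 difference -0.94 ± 0.261, adjusted p = 0.0352), with 2.11 to 2.27 CPM against 3.46 to 5.13. YUC8 was at 11.1 to 14.5 CPM in bbx28-5 and 16.7 to 22.7 CPM in Col-0 (-0.58 ± 0.164, adjusted p = 0.0399). TAA1 did not pass (-0.30 ± 0.132, adjusted p = 0.191), although its groups of 10.7 to 11.9 and 12.3 to 16.2 CPM did not overlap, as was the case for 39.6% of all tested genes.

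YUC2 (-0.06 ± 0.177), YUC3 (-0.53 ± 0.351), YUC4 (0.61 ± 0.538) and YUC9 (0.11 ± 0.272) did not pass either, with adjusted p from 0.437 to 0.907. Called genes were thus 4 of 9, 1 higher and 3 lower, where 9.88% of all tested genes were called (3.80% higher and 6.08% lower). The members' median was -0.30 and that of all genes 0.00. The calls of TAR2 and YUC5 held in all 20 alternative fits. YUC8 passed in 10 of the 20, and YUC6 in 13. Leaving out replicate 1 or 2 of Col-0 in white light, or any replicate of bbx28-5 in white light, ended both calls, with adjusted p from 0.0655 to 0.178 for YUC8 and from 0.0815 to 0.169 for YUC6. YUC8 also missed the threshold with total counts (adjusted p = 0.0519) or DESeq2's size factors (0.0522), with the replicate number as a block (0.0561) and without replicate 1 (0.0522) or 3 (0.0565) of Col-0 in shade.

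Under shade, 4 YUCCA genes were lower in bbx28-5 than in Col-0 and neither aminotransferase gene differed past the threshold. YUC8 had 26.4 to 39.9 CPM in bbx28-5 and 52.2 to 63.0 CPM in Col-0, a log2 difference of -0.74 ± 0.153, or 1.67-fold lower (adjusted p = 0.00211). YUC2, with 2.19 to 3.78 against 4.60 to 6.92 CPM, differed by -0.98 ± 0.212 (adjusted p = 0.00288). YUC9 had 0.346 to 0.870 CPM in bbx28-5 and 1.28 to 2.47 CPM in Col-0, and it showed the widest gap, -1.48 ± 0.371 or 2.79-fold (adjusted p = 0.00716). None of these 3 genes had overlapping groups, a feature of 42.9% of all tested genes. YUC6 passed although its ranges overlapped, 0.693 to 1.38 CPM in bbx28-5 against 1.33 to 2.64 CPM in Col-0 (-1.11 ± 0.349, adjusted p = 0.0241).

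TAA1 was at 3.60 to 5.00 CPM against 5.33 to 5.77 CPM (-0.35 ± 0.166, adjusted p = 0.121) and TAR2 at 8.08 to 11.3 against 7.40 to 8.34 CPM (0.29 ± 0.137, adjusted p = 0.113). YUC3 (-0.62 ± 0.381), YUC4 (-0.44 ± 0.854) and YUC5 (-0.26 ± 0.377) did not pass, with adjusted p from 0.224 to 0.724. In all, 0 of the 9 were higher and 4 lower, where 35.4% of all genes were called (20.9% higher and 14.5% lower), and the members' median of -0.62 stood against 0.03 for all genes. Among called genes overall 59.1% were higher with TMM scaling but 18.7% with total counts, under which 5 members were lower, TAA1 being the fifth (-0.65, adjusted p = 0.00700). Without replicate 2 of the bbx28-5 shade group YUC8 differed by -0.57 (adjusted p = 2.54e-04), YUC2 by -0.79 (adjusted p = 0.00503) and YUC9 by -1.16 (adjusted p = 0.0188). TAR2 then became a higher call (0.42, adjusted p = 0.0165), and YUC6 was no longer called (-0.91, adjusted p = 0.0569). The YUC6 call also ended without replicate 1 of that group (adjusted p = 0.0809) and without replicate 2 (0.0661) or 3 (0.0929) of Col-0 in shade, and YUC3 passed without replicate 1 of the bbx28-5 shade group (-1.14, adjusted p = 0.0388).

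Whether the shade response itself differed between the genotypes was tested as an interaction, subtracting the log2 change of Col-0 from that of bbx28-5. For YUC8 the difference was -0.16 ± 0.224 (adjusted p = 0.679), with a 95% interval from -0.65 to 0.32. It was 0.00 without replicate 2 of the bbx28-5 shade group and -0.45 with total counts (adjusted p = 0.223). A difference in the YUC8 response was therefore not shown, although its level was lower in bbx28-5 in either light. The white light call of YUC8 held in only 10 of 20 alternative fits. TAA1 (-0.04 ± 0.211, adjusted p = 0.916) and TAR2 (-0.35 ± 0.182, adjusted p = 0.239) gave no call.

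Past the threshold were YUC2 (-0.92 ± 0.277, adjusted p = 0.0488) and YUC9 (-1.59 ± 0.463, adjusted p = 0.0438), both with the more negative shade change in bbx28-5, so that 0 members were higher and 2 lower where 10.3% of all genes were called (6.52% higher and 3.79% lower). Both calls lie close to the threshold. YUC2 kept it in 7 of 19 alternative fits and YUC9 in 8 of 19, and without replicate 2 of the bbx28-5 shade group they stood at -0.73 (adjusted p = 0.0516) and -1.27 (adjusted p = 0.0536). Over all these fits the YUC2 difference ran from -1.21 to -0.73 and that of YUC9 from -1.87 to -1.27. YUC5 leaned the other way (1.08 ± 0.465, adjusted p = 0.182), and YUC3 (-0.10 ± 0.519), YUC4 (-1.05 ± 1.01) and YUC6 (-0.17 ± 0.435) did not pass. The members' median was -0.17, that of all genes 0.05. With total counts 15.4% rather than 63.2% of all called genes were higher, and 3 members were lower, TAR2 being the third (-0.64, adjusted p = 0.0431).

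Summing levels per step gave the balance between the aminotransferase and the YUCCA transcripts. The sums use TMM scaling, with mean factors in shade of 1.04 in Col-0 and 0.841 in bbx28-5. They were not made with total counts, so sums of the 2 genotypes in shade depend on that choice. TAA1 and TAR2 together came to 14.8 ± 1.27 CPM per kb of exon in Col-0 in white light and 6.95 ± 0.333 in shade, and to 16.3 ± 1.21 and 6.96 ± 1.01 in bbx28-5 (SD, n = 3), with 8.13, 6.40 and 6.36 in its shade libraries. Within that sum the share of TAA1 was 61.1% ± 3.37 in Col-0 and 45.2% ± 1.18 in bbx28-5 in white light, and 51.3% ± 0.953 and 40.6% ± 4.48 in shade. The 8 YUCCA genes together came to 22.5 ± 2.26 and 40.6 ± 3.99 CPM per kb in Col-0 in white light and shade, and to 16.3 ± 1.16 and 23.7 ± 5.69 in bbx28-5. The YUCCA sum in shade was below every Col-0 value in all 3 bbx28-5 libraries, which had 28.6, 17.5 and 25.2 against 37.2, 45.0 and 39.7 CPM per kb.

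The higher YUCCA sum in shade was made up of YUC8. It made up 49.6% ± 3.16 of the sum in Col-0 in white light and 80.1% ± 1.28 in shade, and 45.8% ± 2.97 and 82.5% ± 4.23 in bbx28-5. In the bbx28-5 shade libraries the share was 80.6%, 87.3% and 79.5%. The other 7 genes together were at 11.3 ± 0.745 CPM per kb in white light and 8.08 ± 0.850 in shade in Col-0, and at 8.81 ± 0.163 and 4.31 ± 1.82 in bbx28-5, where the shade libraries had 5.55, 2.22 and 5.16. Those sums did not overlap between lights in either genotype, and they carry no test here. The ratio of YUC8 to TAA1 per kb went from 1.27 ± 0.366 to 9.14 ± 1.22 in Col-0 and from 1.02 ± 0.160 to 6.99 ± 1.69 in bbx28-5, with 7.12, 5.24 and 8.61 in its shade libraries. In whole seedlings, fewer cells that express a gene and less RNA per cell cannot be told apart.

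**Figure D3:**
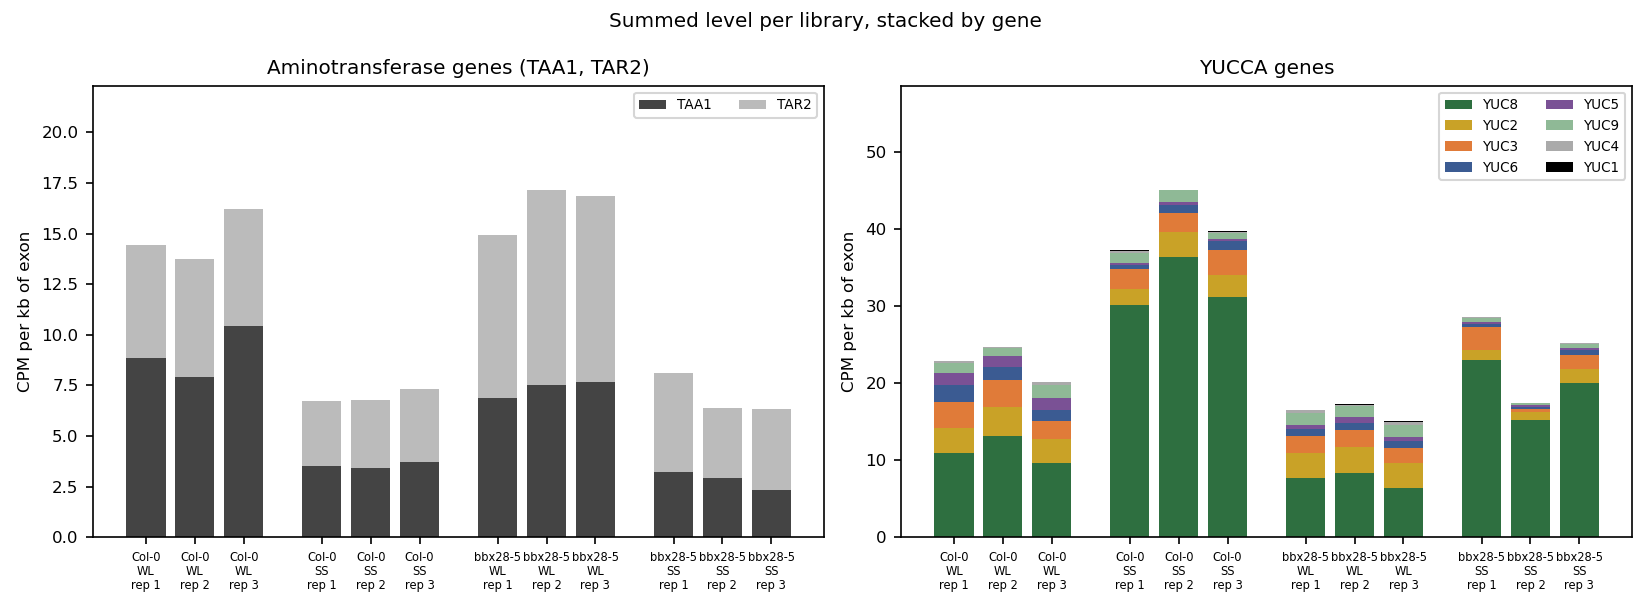
Summed level per library in CPM per kb of exon, stacked by gene, for TAA1 and TAR2 (left) and the 8 YUCCA genes (right); bars start at 0 and the vertical axes differ. The YUC8 block grows from 49.6% to 80.1% of the YUCCA sum in Col-0 and from 45.8% to 82.5% in bbx28-5. With TMM scaling the TAA1 and TAR2 sum falls to about 7 CPM per kb in shade (6.95 in Col-0 and 6.96 in bbx28-5).

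Genes whose levels followed a member most closely were looked up by Pearson's r of log2 CPM over the 12 libraries among the 17062 genes whose mean log2 CPM reached 1. The libraries fall into 4 groups that differ widely, so that r mostly follows the 4 group means. For YUC8 these were FAR1 (AT5G22500), a fatty acid reductase gene, at r = 0.989, AT3G12710, annotated in the DNA glycosylase superfamily, at 0.981, and AT5G44440, an FAD-binding Berberine family gene, at 0.980. FAR1 went from a mean of 128.6 to 517 CPM in Col-0 and from 76.1 to 265 CPM in bbx28-5, so that, like YUC8, it was higher in shade and lower in bbx28-5. For TAA1 they were CSLG3 (0.993), a cellulose synthase-like gene, BGLU18 (0.992), a beta-glucosidase gene, and AT4G13100, a RING/U-box gene (0.989). For YUC2 they were RIP3 (0.977), UCP2 (0.974) and SUB1 (0.967), and RIP3 had 11.2, 6.72, 10.0 and 2.31 CPM on average in Col-0 in white light and shade and bbx28-5 in white light and shade.

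Around the 2 steps, genes that supply tryptophan fell in shade along with TAA1 and TAR2. Of 11 genes of tryptophan synthesis 8 fell and 1 rose in Col-0 (median log2 change -0.77), and 7 fell and 1 rose in bbx28-5 (median -0.75), where 0 rose with total counts. Over all genes 59.4% changed in Col-0 and 67.5% in bbx28-5, which is also the background for the other lists. Between genotypes that background was 9.88% in white light (3.80% higher and 6.08% lower) and 35.4% in shade (20.9% higher and 14.5% lower). For the interaction it was 10.3%. TSA1, the alpha subunit of tryptophan synthase, changed by -0.94 ± 0.0945 (adjusted p = 1.02e-06), AT2G04400, annotated with indole-3-glycerol-phosphate synthase activity, by -1.23 ± 0.107 (adjusted p = 2.39e-07) and ASB1, the beta subunit of anthranilate synthase, by -1.51 ± 0.186 (adjusted p = 7.86e-06), all in Col-0. Between genotypes 0 were higher and 2 lower in either light. In white light 5 were lower without replicate 2 of the bbx28-5 shade group, and in shade 6 were lower with total counts and 1 with DESeq2's size factors, which also gave 1 higher, as did leaving out that library. The indole aldoxime branch, which in Arabidopsis leads to indole glucosinolates and can also give IAA, held some of the largest changes. Of its 8 tested genes 6 fell and 2 rose in Col-0, with CYP79B2, which makes the aldoxime from tryptophan, at -3.04 ± 0.153 (adjusted p = 1.15e-09) and SUR2, a cytochrome P450 that feeds glucosinolates, at -2.75 ± 0.147 (adjusted p = 2.22e-09). AMI1, an amidase gene, rose by 1.82 ± 0.0996 (adjusted p = 2.67e-09).

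CYP79B2 and SUR2 were also lower in bbx28-5 than in Col-0, by -1.26 and -1.01 in white light and by -1.82 and -1.33 in shade, and AMI1 was higher by 0.93 in shade (adjusted p = 1.01e-05). Over the branch 5 genes were lower and 0 higher in white light, and 5 lower and 3 higher in shade. Over all genes 9.88% were called between genotypes in white light, 35.4% in shade and 10.3% in the interaction. In bbx28-5 5 fell and 2 rose with shade, and the interaction called 3 higher and 1 lower, with 4 lower under total counts and 2 lower without replicate 2 of the bbx28-5 shade group.

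Of the 6 relatives of the members that were not included in the set, TAR1, AT1G34040, AT1G34060, YUC7, YUC10 and YUC11, 3 had no count in any library and 2 could be tested. AT1G34040, annotated as a pyridoxal phosphate-dependent transferase, fell by 0.84 ± 0.152 in Col-0 (log2, adjusted p = 2.90e-04) and by 1.09 in bbx28-5, and it was lower in bbx28-5 in either light. The other 1, AT1G34060, gave no call in any of the 5 comparisons.

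Of 4 tested genes in a list drawn up for IAA inactivation 1 rose and 1 fell in either genotype, a share below that over all genes. IAMT1, an IAA methyltransferase gene, rose by 0.98 ± 0.204 in Col-0 (adjusted p = 8.44e-04) and AT1G14120, annotated in the 2-oxoglutarate and Fe(II)-dependent oxygenase superfamily, changed by -1.96 ± 0.128 (adjusted p = 1.46e-08). Its annotated neighbour in that list, AT1G14130, was at 0.04 ± 0.205 (adjusted p = 0.875). Of 5 tested amidohydrolase genes listed under IAA release from conjugates 3 rose and 0 fell in Col-0, namely ILL6 (0.77 ± 0.0920), ILR1 (0.54 ± 0.151) and IAR3 (0.53 ± 0.154). Which conjugates each enzyme acts on was not measured. In bbx28-5 3 rose and 2 fell, and 0 fell without replicate 2 of the bbx28-5 shade group.

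Of 5 known regulators of YUCCA genes, 3 rose and 1 fell with shade in either genotype, and 2 fell in bbx28-5 with total counts. PIF7 fell by 2.20 ± 0.107 on the log2 scale in Col-0 (adjusted p = 8.77e-10), whereas RVE1 (1.64 ± 0.122) and PIF5 (0.47 ± 0.0792) rose. Between genotypes in shade 3 were higher in bbx28-5, namely PIF4 (0.62, adjusted p = 1.58e-04), PIF7 (0.58, adjusted p = 0.00205) and PIF5 (0.42, adjusted p = 0.00110), but 1 with total counts. Of all genes 20.9% were higher in that comparison. Downstream, 7 of 8 auxin response genes rose and 1 fell with shade in each genotype, with a median of 2.03 in Col-0 and 1.70 in bbx28-5. The interaction called 3 of the 8 higher and 1 lower (median 0.26), against 6.52% and 3.79% of all genes. The lower median in bbx28-5 therefore does not show a weaker response. In Col-0 IAA19, a transcriptional repressor of auxin signalling, rose by 2.13 ± 0.0926, the related IAA2 by 2.40 ± 0.131 and GH3.5, which conjugates IAA to amino acids, by 2.07 ± 0.0941. Between genotypes in white light 0 of the 8 were higher in bbx28-5 and 3 lower, where 6.08% of all genes were lower. In shade, where 20.9% of all genes were higher and 14.5% lower, 3 of the 8 were higher and 1 lower. These became 0 higher and 3 lower with total counts, and 2 were lower without replicate 2 of the bbx28-5 shade group.

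**Figure D4:**
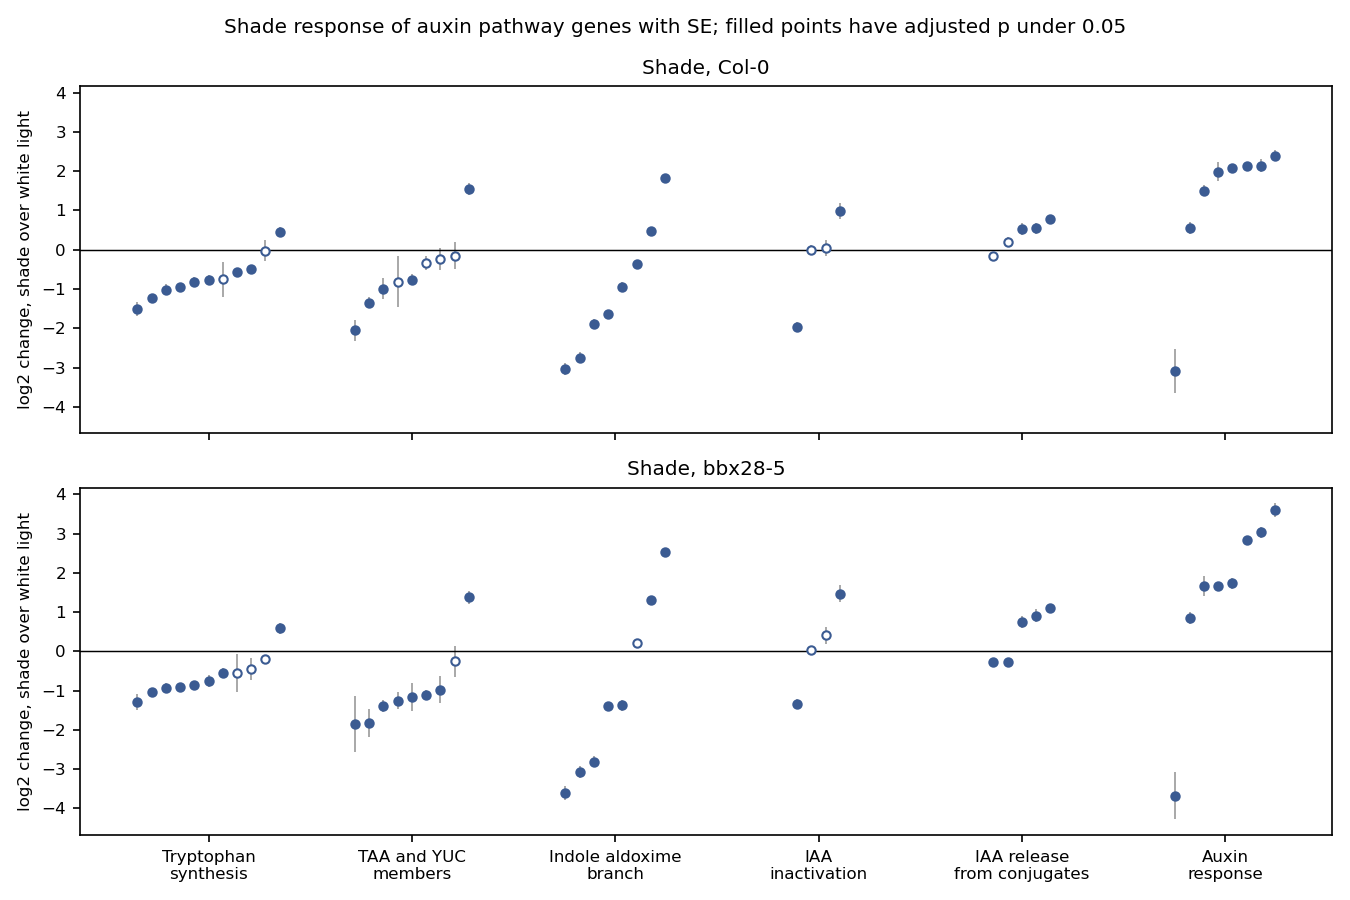
Log2 change in shade (points) with SE (bars) of the tested genes of tryptophan synthesis, the TAA and YUCCA set, the indole aldoxime branch, IAA inactivation, IAA release from conjugates and auxin response, in Col-0 (top) and bbx28-5 (bottom), sorted within each list; filled points have an adjusted p under 0.05. The medians of tryptophan synthesis (-0.77 and -0.75) and of the aldoxime branch (-1.30 and -1.39) are below 0 and those of auxin response (2.03 and 1.70) are above 0 in both panels.

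Summed levels of organ markers also differed between the groups. Such sums weigh the abundant markers most, and single markers moved in both directions. In the order Col-0 in white light, Col-0 in shade, bbx28-5 in white light and bbx28-5 in shade, 12 root markers summed to 3428 to 3728, 2474 to 2739, 2892 to 3039 and 1672 to 1759 CPM. The 8 shoot markers summed to 28541 to 32418, 12068 to 13734, 33169 to 33670.3 and 18002 to 23768 CPM, and 6 seed and embryo markers to 51.6 to 127, 41.6 to 107, 160 to 289 and 144 to 792 CPM. The root marker sum was thus lowest in bbx28-5 in shade, as were the mean levels of TAA1, YUC2, YUC6 and YUC9, among others. TAR2 was instead lowest in Col-0 in shade, with a mean of 7.82 CPM against 9.57 CPM in bbx28-5 in shade. YUC8 was lowest in bbx28-5 in white light, with a mean of 13.0 CPM. No marker was at 0 in all libraries, and 1 root and 1 seed marker were at 0 in the 3 bbx28-5 shade libraries. Of 11 tested root markers 4 fell and 1 rose with shade in Col-0 and 6 fell and 2 rose in bbx28-5, and 4 were lower in bbx28-5 in either light. The shade shares, 5 and 8 of 11, are below and near those over all genes. Between genotypes, 6.08% of all genes were lower in bbx28-5 in white light and 14.5% in shade. Of 8 shoot markers 4 fell and 2 rose with shade in Col-0, where 59.4% of all genes changed. In bbx28-5 5 fell and 1 rose, a share near the 67.5% over all genes. With total counts 1 rose in Col-0 and 0 in bbx28-5, and with DESeq2's size factors 1 rose in Col-0. Of 5 tested seed markers 2 were higher in bbx28-5 in white light, 4 without replicate 2 of the bbx28-5 shade group, and 4 were higher in shade. Over all genes 3.80% were higher in white light and 20.9% in shade. The part of the organ markers in the results on the auxin biosynthesis genes was not tested.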

How the data were processed

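The submitters' processing notes name HISAT, SAMtools, HTSeq, FastQC and edgeR, all without versions, and the build TAIR10. Per the labels a stranded mRNA kit was used, but sources used here give no strand setting for counting. The authors deposited raw counts for 32833 genes in 12 libraries, and a normalized table of 19724 genes in log2 CPM, which was recomputed from the deposited counts and used for an alternative test. Tests used the deposited counts. Genes were filtered with filterByExpr (19711 kept, at least 99.91% of each library's counts), and 1 quasi-likelihood model of the 12 libraries was fitted with edgeR 4.0.16 (R 4.3.3), TMM scaling and a mean per group. Benjamini-Hochberg adjustment ran over the 19711 genes, and calls needed an adjusted p under 0.05. SE values derive from the test statistic and a spread shared by the 4 groups; CPM values carry the SD of 3 libraries. Values per kb use exon length in TAIR10.1, from which gene models and sequences were read by identifier. The tests were first run on simulated counts. Totals of 10.61 to 14.3 M counts limit low genes most, and floors cover counting error only. Alternatives were scaling by total counts or DESeq2 size factors, no filter, the authors' gene choice, DESeq2 1.42.0, limma 3.58.1, only the compared groups, a replicate block and leaving out each library. All replicate pairs differed by more than counting noise (chi-square per gene at least 2.22). Pairs with replicate 2 of the bbx28-5 shade group stood at 38.9 and 43.5, and the remaining pairs reached 4.65 at most.

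Earlier results of these data were known when the members and lists were chosen. The rule for the members names gene identifiers only and uses no measured values. Genes named were all 10 members, up to 3 genes per pathway list with the smallest adjusted p for shade in Col-0, and the 3 genes most like TAA1, YUC2 and YUC8. PIF4 was named outside this rule, after its values were seen.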

Additional observations from a re-analysis of the deposited data

Results flagged for a closer look

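By the interaction test of edgeR, 2 of the 9 tested genes passed the threshold, both lower. Of all tested genes 10.3% passed it, 3.79% of them all being lower calls. For YUC2 the log2 change of bbx28-5 less that of Col-0 was -0.92 ± 0.277 (adjusted p = 0.0488), as the 3 bbx28-5 shade libraries lay below all 3 of Col-0 while the white light groups overlapped. For YUC9 it was -1.59 ± 0.463 (adjusted p = 0.0438), with 8, 3 and 9 counts in the bbx28-5 shade libraries. Over 19 alternative fits the adjusted p ran from 0.0136 to 0.115 for YUC2 and from 0.0170 to 0.102 for YUC9. The call was kept in 7 of them for YUC2 and in 8 for YUC9, so neither difference is firm. The part of depth and of organ markers in these differences was not tested.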

How the results depend on the processing

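Over 20 alternative fits, the calls for shade of TAA1, TAR2 and YUC8 in both genotypes, YUC5 and YUC6 in Col-0 and YUC2, YUC6 and YUC9 in bbx28-5, the calls of TAR2 and YUC5 between genotypes in white light, and those of YUC2, YUC8 and YUC9 in shade kept their direction and side of the threshold. Depth limits YUC1, which gave no call without the filter (adjusted p from 0.222 to 0.699), YUC4, and YUC5 and YUC9 in bbx28-5 in shade. Counts over all genes moved by over 1.5 times for genotype in white light (1947 genes; 5093 with only the compared groups; 994 to 4766 leaving out a library, the highest without bbx28-5 shade replicate 2), genotype in shade (6974; 3693 with only the compared groups) and the interaction (2032; 3120 with total counts; 1130 to 4545 leaving out a library). Leaving out a library gave 1 to 3 lower members in white light (3 in the full fit), 0 to 1 higher in shade (0), and 0 to 1 lower in the interaction (2; 0 with limma); the cause was not tested.

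No pairing of replicates was found: residuals of 18 same-numbered library pairs correlated from -0.123 to 0.0975, none over 0.1. With the replicate number as a block 1 member was lower between genotypes in white light (3 without) and 0 in the interaction (2 without), where YUC2 had an adjusted p of 0.0704 and YUC9 of 0.0723.

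Directions that reversed were those of changes that had not passed the test. Leaving out a library, shade in Col-0 ran from -0.41 to 0.0023 for YUC9 (highest without Col-0 shade replicate 3), and shade in bbx28-5 from -0.81 to 0.17 for YUC3 (highest without bbx28-5 shade replicate 2). Genotype in white light ran from -0.12 to 0.021 for YUC2 and from -0.043 to 0.30 for YUC9 (both reversed without Col-0 white light replicate 2), and genotype in shade from -0.84 to 0.14 for YUC4 (reversed without Col-0 shade replicate 1). Interactions ran from -0.16 to 0.12 for TAA1, from -0.61 to 0.37 for YUC3, from -0.55 to 0.039 for YUC6 and from -0.29 to 0.0024 for YUC8, each but TAA1 highest without bbx28-5 shade replicate 2. With total counts TAR2 for genotype in shade was -0.0078.

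YUC3 passed between genotypes in white light with only the compared groups (adjusted p = 0.0441).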
